A study of Arabidopsis thaliana with 43 samples.

Results

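The late embryogenesis abundant (LEA) genes of Arabidopsis thaliana were followed through embryo development. The set holds 51 loci, taken from a list that covers 9 LEA families, out of 32507 loci in the tables. By family these are 18 LEA_4 genes, 10 dehydrins, 6 seed maturation protein (SMP) genes, 4 LEA_3, 3 LEA_1, 3 LEA_2, 3 PvLEA18, 2 LEA_5 (Em) and 2 AtM genes. All embryos were wild type, accession Col-0, and 50 embryos were collected for each RNA sample. The main series has 8 stages with 3 Smart-seq2 libraries each, in order preglobular, globular, early and late heart, early and late torpedo, bent cotyledon and mature green. Smart-seq2 amplifies whole cDNA of polyadenylated transcripts from very small samples. The bent-cotyledon libraries of this series were made from 5 ng of total RNA, and the amount used at the other stages is given as unknown. Bent-cotyledon RNA was also prepared with Smart-seq2 from 0.1, 0.5 and 1 ng in 3 replicates, and with the Ovation and SMARTer kits from 0.05, 0.1, 0.5, 1 and 5 ng in 1 library each.

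LEA proteins are small, very hydrophilic proteins that accumulate late in seed development and when tissues lose water. Many are unfolded in solution, and they are thought to shield membranes and other proteins while a seed dries. Dehydrins and several other members also respond to cold, drought and the hormone abscisic acid in leaves, through bZIP factors that bind ACGT-containing promoter elements and through CBF factors of the cold response.

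Levels are CPM (estimated counts per 1e6 of the TMM-scaled library), given per library in the order of the replicates or as mean ± SD over 3 libraries, unless TPM is named. TPM also divides by transcript length and is the scale for comparing genes with each other. Libraries held 17769463 to 35807605 estimated counts at the stages other than bent cotyledon, 8432892 to 11552331 at bent cotyledon, 1021484 to 11448695 at the lower inputs and 2325110 to 11870863 with the other kits. Summed levels of 8 embryo markers were 155.2 to 682.5 CPM across the 24 libraries, against 0.990 to 11.6 CPM for 9 endosperm markers and 18.5 to 54.6 CPM for 8 seed coat markers. At mature green ATML1 and PID made up most of the embryo sum, at 80.1 and 66.4 CPM on average. STM, PLT1, CUC2 and DRN averaged 9.895, 5.48, 2.53 and 1.04 CPM there, WOX2 0.076 CPM and WOX8 0 CPM. Of the seed coat list MUM4 had the highest mean at every stage, with 32.7 ± 11.9 CPM at mature green. TT10 averaged 0.1055 CPM at preglobular, 5.93 CPM at late torpedo and 5.94 CPM at mature green, TTG2 was highest at late heart at 7.82 CPM and BAN at globular at 5.46 CPM. The other seed coat markers, TT2, TT8, TT12 and TT16, stayed under 1 CPM in the mean of every stage. The part of other tissues in the results was not tested. The titles of the mature green libraries number 3 replicates, while their descriptions call each one the first, so their tests may leave out the spread between collections of embryos. Mature green replicate 3 and early torpedo replicate 2 stood apart from their groups. The chi-square of the counts per degree of freedom was 78.0 and 79.5 between mature green replicate 3 and the others of its stage and 118.4 and 124.3 between early torpedo replicate 2 and the others of its stage, beside 3.86 to 43.8 in the 20 other replicate pairs. Every pair exceeded counting noise, which does not show whether libraries came from separate collections. In whole embryos, a change in the number of cells that make a transcript and a change in the transcript per cell cannot be told apart.

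Of the 51 members, 37 had enough counts to be tested and 14 did not. AT3G53770 (LEA_3) had 0 counts in the 24 libraries, and 8 members, it among them, stayed under 1 CPM in the mean of every stage. Another 15 exceeded 100 CPM at some stage. Over the 8 stages 36 of the 37 tested members varied (edgeR quasi-likelihood F test, Benjamini-Hochberg adjusted p under 0.05), beside 91.1% of all tested genes. The exception was UNE15 (LEA_4), which was never above 2.58 CPM. By stage of highest mean, 4 tested members peaked at preglobular, 2 at globular, 4 at early torpedo, 4 at late torpedo, 1 at bent cotyledon and 22 at mature green. Mature green was the peak of 59.5% of tested members and of 30.9% of all tested genes. A member high in only 1 library does not pass the filter on low counts, so these shares describe the members that passed. EM1 (LEA_5), AT2G42560 (LEA_4) and AT2G23110 (PvLEA18) averaged under 1 CPM at every stage before mature green. They passed through the mature green libraries, so their peak and rise there follow from the filter. COR15A (LEA_4) likewise passed through preglobular, averaging under 1 CPM at every later stage.

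**Figure D1:**
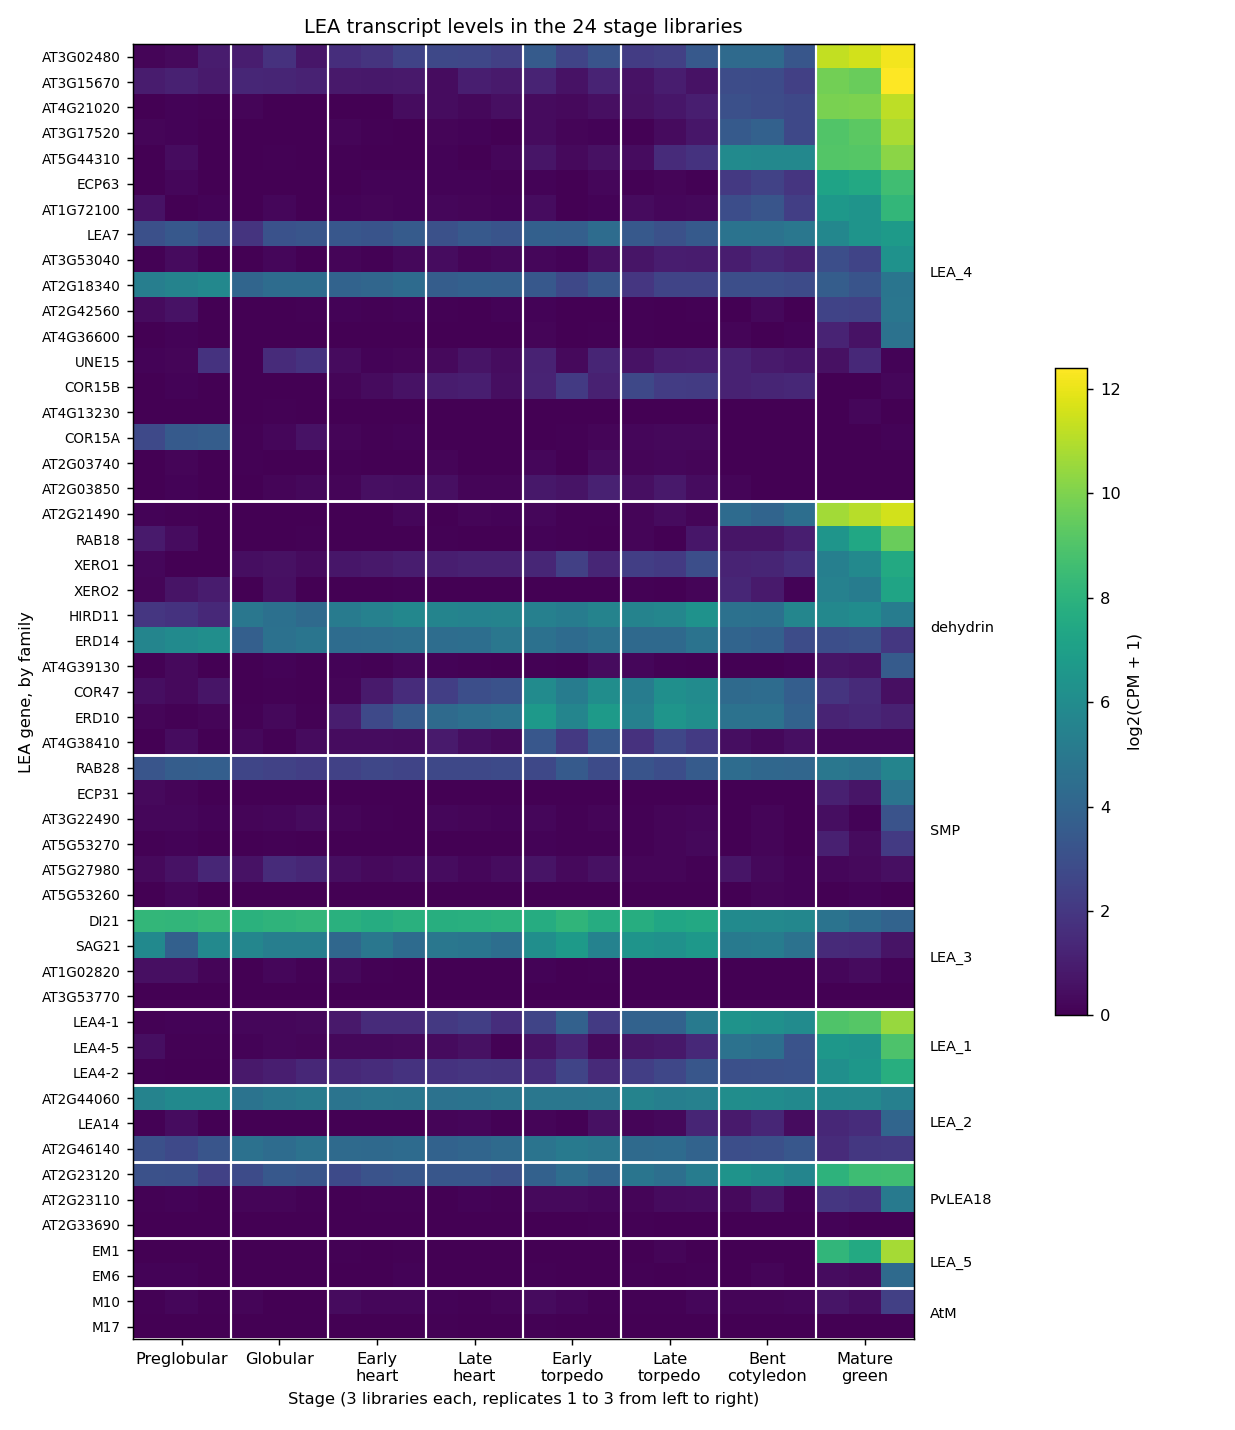
Levels of the 51 LEA genes as log2(CPM + 1) (colour) in each of the 24 stage libraries (columns, 3 per stage), grouped by family. The mature green columns hold the highest levels, AT3G02480 averaging 3350 CPM, while COR47 and SAG21 are highest at late torpedo and DI21 at preglobular.

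The summed share of LEA transcripts was low through 7 stages, with every preglobular library below every early heart library. It averaged 0.0473% of all TPM at preglobular, 0.0568% at globular, 0.0628% at early heart, 0.0627% at late heart, 0.0619% at early torpedo, 0.0579% at late torpedo and 0.0583% at bent cotyledon. At mature green the 3 libraries held 0.681, 0.727 and 1.54%, on average 0.981% ± 0.481 (SD, n = 3). The make-up of the sum changed before its large rise at mature green. DI21 (AT4G15910), a drought-induced LEA_3 gene, made up 53.0% to 61.3% of LEA TPM in the preglobular to late heart libraries, and 27.2% to 38.0% in the late torpedo libraries. At bent cotyledon the leading member was AT2G23120 (PvLEA18) in replicate 1 and LEA4-1 (LEA_1) in the others. At mature green it was AT3G02480 (LEA_4), with 42.1, 43.7 and 30.5% of LEA TPM in replicates 1, 2 and 3.

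Between preglobular and globular embryos the members went both ways. Of 37 tested members 3 were higher at globular and 5 were lower, beside 11.4% higher and 12.2% lower among all tested genes (23.6% in either direction). Of the tested markers of other tissues, 0 of 6 endosperm markers were called here and 1 of 5 seed coat markers, TTG2, which averaged 0.63 CPM at globular and 0.1355 CPM at preglobular. HIRD11 (AT1G54410), a small histidine-rich dehydrin, had 28.9, 23 and 18.9 CPM at globular, against 2.95, 2.56 and 1.69 CPM at preglobular (log2 fold change 3.30, SE 0.33, adjusted p = 6.7e-07 by edgeR). AT2G46140 (LEA_2) had 23.7, 20.1 and 24.7 CPM at globular, against 7.07, 5.78 and 8.53 CPM at preglobular (log2 fold change 1.68, SE 0.18). LEA4-2 (AT2G35300, LEA_1) had 0.815, 1.05 and 1.64 CPM at globular, and its 86 counts there, against 1 at preglobular, give a ratio of 72.9 with a counting interval of 12.7 to 2913. That ratio was 48.2 without preglobular replicate 2, and at least 16.1-fold higher relative to 3 counts without preglobular replicate 1, which held the 1 count. In each of these genes every globular library lay above every preglobular one.

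COR15A (AT2G42540), which encodes a cold-induced protein of the chloroplast stroma, was a preglobular transcript. It had 0.0388, 0.179 and 0.547 CPM at globular, against 5.58, 10.5 and 11.7 CPM at preglobular (log2 fold change −5.26, SE 0.71, adjusted p = 3.2e-05 by edgeR), and it stayed under 0.25 CPM in every later library. Without globular replicate 3 the log2 fold change was −6.27. Its neighbour COR15B (AT2G42530) was highest at late torpedo, at 4.15 ± 1.11 CPM. ERD14 (AT1G76180), an acidic dehydrin of the dehydration response, had 12.4, 23.9 and 27.4 CPM at globular, against 49.1, 60.9 and 68.1 CPM at preglobular. AT2G18340 (LEA_4) had 15.4, 19.6 and 20.2 CPM at globular, against 38.1, 45.3 and 55 CPM at preglobular. RAB28 (AT1G03120, SMP) averaged 4.499 ± 0.552 CPM at globular and 10.8 ± 1.93 CPM at preglobular, and AT2G44060 (LEA_2) averaged 29.96 ± 4.66 CPM at globular and 53.8 ± 6.74 CPM at preglobular (SD, n = 3 each).

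Through the heart stages the largest movement was in a pair of neighbouring acidic dehydrin genes, COR47 (AT1G20440) and ERD10 (AT1G20450), known in leaves for their response to cold and drought. At early heart 5 members were higher than at globular and 1 was lower, beside 8.57% higher and 9.03% lower among all tested genes (17.6% in either direction). At late heart 2 were higher than at early heart and 0 were lower, beside 1.22% higher and 1.23% lower among all tested genes (2.45% in either direction). The seed coat marker TTG2 was also higher at early heart, averaging 6.27 CPM at early heart and 0.63 CPM at globular, and the endosperm marker FWA was lower at late heart, averaging 0.326 CPM at late heart and 1.75 CPM at early heart. At an unadjusted p under 0.05 edgeR had the same 2 members higher and 0 lower at late heart, and DESeq2 called 2 of 42 higher and 0 lower, beside 2.48% and 2.06% of all genes. ERD10 had 1.02, 5.77 and 10.2 CPM at early heart, against 0.0388, 0.209 and 0.0547 CPM at globular (log2 fold change 5.57, SE 0.79, adjusted p = 1.2e-04 by edgeR), and 18.6, 22.4 and 25.8 CPM at late heart. COR47 had 0.107, 0.871 and 1.94 CPM at early heart, against 0, 0.0598 and 0 CPM at globular, and 3.94, 6.95 and 7.804 CPM at late heart. For both genes the early heart libraries were far apart, and every late heart library lay above all of them. The 2 counts of COR47 at globular give a ratio of 38.6 with a counting interval of 10.5 to 322 for early heart over globular. It was 20.4 without early heart replicate 3, and at least 14.6-fold higher relative to 3 counts without globular replicate 2, which held both counts. For ERD10 the log2 fold change at early heart was 4.84 when early heart replicate 3 was left out, and it was 6.81 when globular replicate 2 was.

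LEA4-1 (AT1G32560), HIRD11 and COR15B were also higher at early heart. LEA4-1 averaged 1.54 ± 0.637 CPM at early heart and 0.174 ± 0.0385 CPM at globular, and HIRD11 averaged 43.6 ± 9.32 CPM at early heart and 23.6 ± 5.06 CPM at globular. COR15B had 0.107, 0.305 and 0.534 CPM at early heart, against 0, 0.0299 and 0 CPM at globular, and its 40 counts against 1 give a ratio of 24.9 with a counting interval of 4.22 to 1007, or at least 4.72-fold higher relative to 3 counts without globular replicate 2, which held the 1 count. AT5G27980 (SMP) was lower, with 0.374, 0.261 and 0.3398 CPM at early heart, against 0.504, 1.91 and 1.48 CPM at globular (adjusted p = 0.034 by edgeR). That call was lost without any single library of the step other than globular replicate 1, with adjusted p up to 0.14, and that of COR15B without globular replicate 1 or early heart replicate 3. The late heart call of ERD10 was lost without early heart replicate 1 or 2 or late heart replicate 2 or 3 (adjusted p up to 0.11), and that of COR47 without late heart replicate 3 (adjusted p = 0.051). Without early heart replicate 3, 3 of 40 tested members were higher at early heart than at globular, beside 4.35% of all genes. With late heart replicate 3 left out, 0 of 40 were higher at late heart, beside 0.274% of all genes.

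At early torpedo 6 members were higher than at late heart and 0 were lower, beside 13.3% higher and 5.76% lower among all tested genes (19% in either direction). Without early torpedo replicate 2, 4 of 40 were higher, beside 7.23% of all genes. At an unadjusted p under 0.05 edgeR had 12 members at this step, and DESeq2 called 7 of 42 higher and 0 lower, beside 16.8% higher and 7.502% lower among all genes. The endosperm marker ALE1 and the seed coat marker TT10 were also higher, with 1 of 6 and 1 of 5 tested markers called. ALE1 averaged 6.39 ± 2.73 CPM at early torpedo and 1.39 ± 0.432 CPM at late heart (adjusted p = 0.023 by edgeR), and TT10 averaged 3.03 ± 0.998 CPM at early torpedo and 0.489 ± 0.293 CPM at late heart (adjusted p = 0.0058 by edgeR). COR47 had 61.9, 35.6 and 65.7 CPM at early torpedo, against 3.94, 6.95 and 7.804 CPM at late heart (log2 fold change 3.13, SE 0.49, adjusted p = 3.5e-04 by edgeR). ERD10 had 100.2, 49.3 and 108 CPM at early torpedo, against 18.6, 22.4 and 25.8 CPM at late heart. AT4G38410, another dehydrin, had 9.48, 3.15 and 9.76 CPM at early torpedo, against 0.863, 0.374 and 0.258 CPM at late heart (log2 fold change 3.88, SE 0.65, adjusted p = 5.8e-04 by edgeR). Replicate 2, the library that stood apart, was the lowest early torpedo library for these 3 dehydrins, and it lay above every late heart library. The log2 fold change of AT4G38410 was 4.53 without late heart replicate 1. SAG21 (AT4G02380), a LEA_3 gene of senescing leaves, averaged 73.4 ± 31.1 CPM at early torpedo and 26.1 ± 4.12 CPM at late heart. AT2G23120 averaged 16.2 ± 3.62 CPM at early torpedo and 8.498 ± 0.968 CPM at late heart, and AT2G46140 averaged 29.9 ± 3.38 CPM at early torpedo and 15.8 ± 2.38 CPM at late heart. On the log2(TPM + 1) scale the median of all genes shifted by −0.32 at this step, and limma on that scale called 5 members higher and 2 lower, beside 4.72% higher and 39.0% lower among all genes.

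Few genes were called between late torpedo and early torpedo embryos. No member was higher and 1 was lower, beside 0.666% higher and 0.466% lower among all tested genes (1.13% in either direction), although 10 members had an unadjusted p under 0.05 in edgeR and DESeq2 called 2 of 39 higher, beside 2.202% of all genes. None of the 11 tested endosperm and seed coat markers was called. AT2G46140 had 18.3, 19.4 and 14.5 CPM at late torpedo, against 26.7, 33.4 and 29.5 CPM at early torpedo (log2 fold change −0.78, SE 0.17, adjusted p = 0.029 by edgeR). That call was lost without early torpedo replicate 1 or 3 or late torpedo replicate 1 or 3, with adjusted p up to 0.20. Without early torpedo replicate 2, the library that stood apart, 4 of 40 tested members were higher and 2 were lower, beside 3.84% higher and 1.52% lower among all tested genes (5.36% in either direction). The highest means of COR47 at 57.4 ± 18.6 CPM, SAG21 at 86.3 ± 10.4 CPM and HIRD11 at 58.7 ± 17.7 CPM were at late torpedo.

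**Figure D2:**
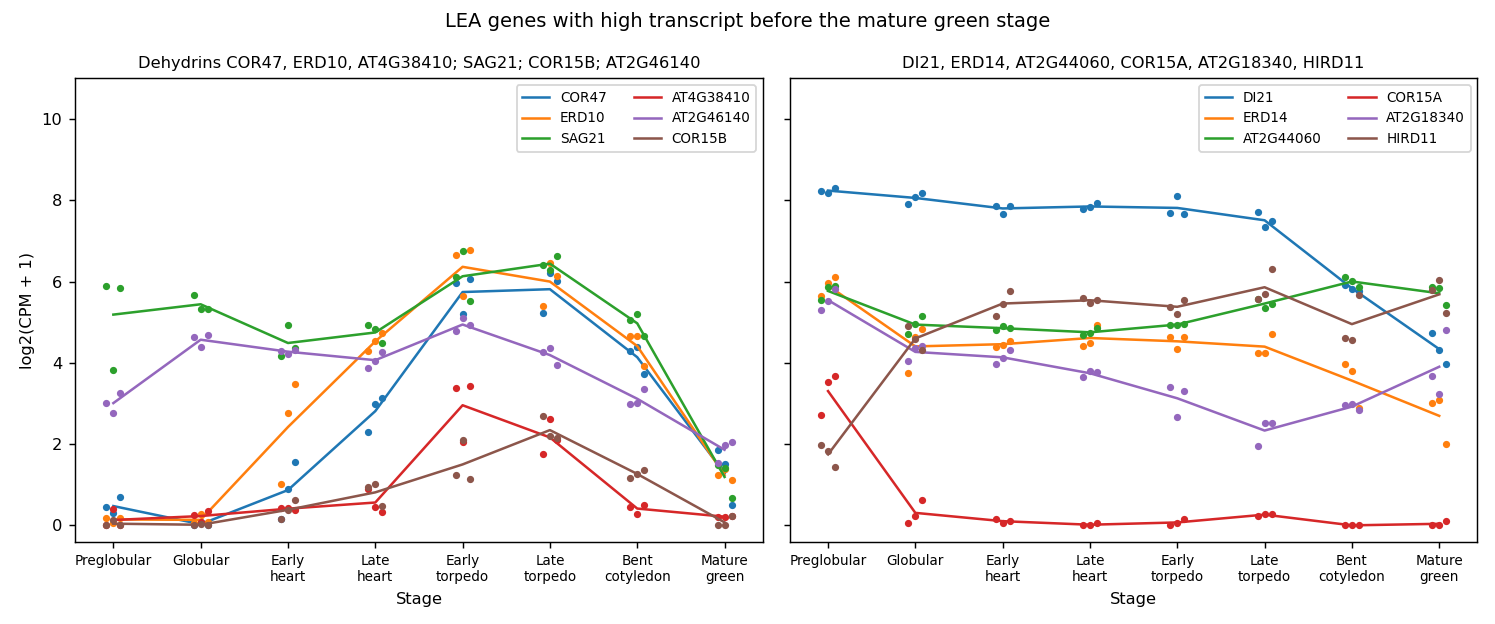
Levels of 12 LEA genes that are high before the mature green stage as log2(CPM + 1) over the 8 stages; points are single libraries and lines join the means of the 3 log2 values. COR47 and ERD10 climb through the heart stages to the torpedo stages and have 1.62 and 1.37 CPM on average at mature green, and COR15A is above 5 CPM at preglobular alone.

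At bent cotyledon many LEA_4 genes rose while most dehydrins fell. Of 37 tested members 14 were higher than at late torpedo and 11 were lower, beside 13.7% higher and 19.7% lower among all tested genes (33.3% in either direction). The endosperm markers ZOU and ALE1 and the seed coat marker BAN were also lower, and the seed coat marker MUM4 was higher. ALE1 averaged 0.274 CPM at bent cotyledon and 4.65 CPM at late torpedo, and MUM4 averaged 39.2 CPM at bent cotyledon and 17.6 CPM at late torpedo. Among the 15 tested LEA_4 genes 8 were higher and 2 lower, and among the 9 tested dehydrins 1 was higher and 6 were lower. Both tested LEA_3 genes fell. The dehydrin that rose, AT2G21490, had 19.4, 15.2 and 21.6 CPM at bent cotyledon, against 0.115, 0.267 and 0.109 CPM at late torpedo (log2 fold change 6.79, SE 0.45, adjusted p = 3.2e-09 by edgeR). AT5G44310 (LEA_4) had 60.5, 54.4 and 53.9 CPM at bent cotyledon, against 0.343, 1.87 and 2.51 CPM at late torpedo (log2 fold change 5.14, SE 0.48). ECP63 (AT2G36640, LEA_4) had 3.14, 4.52 and 2.81 CPM at bent cotyledon, against 0.0572, 0.107 and 0.0547 CPM at late torpedo (log2 fold change 5.46, SE 0.75). For these 3 genes every bent-cotyledon library was more than 20 times the highest late torpedo library. AT3G02480 was called higher with overlapping libraries, at 18.6, 18.4 and 8.92 CPM at bent cotyledon, against 3.61, 4.17 and 10 CPM at late torpedo. HIRD11 was called lower with overlapping libraries, at 23.5, 22.7 and 50.2 CPM at bent cotyledon, against 46.2, 51.02 and 78.9 CPM at late torpedo.

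Among the members lower at bent cotyledon, DI21 averaged 56.2 ± 3.33 CPM at bent cotyledon and 182 ± 23.9 CPM at late torpedo (log2 fold change −1.70, SE 0.16, adjusted p = 1.8e-07 by edgeR). COR47 averaged 16.97 ± 4.19 CPM at bent cotyledon and 57.4 ± 18.6 CPM at late torpedo, and ERD10 averaged 20.9 ± 5.86 CPM at bent cotyledon and 65.9 ± 22.9 CPM at late torpedo. AT4G38410 had 0.376, 0.215 and 0.413 CPM at bent cotyledon, against 2.404, 5.18 and 3.28 CPM at late torpedo. Few reads lie behind the calls of COR15A and AT2G03850 (LEA_4). COR15A had 0 counts at bent cotyledon, against 0.172, 0.214 and 0.219 CPM or 11 counts at late torpedo, at least 1.98-fold lower relative to 3 counts over the group, or at least 1.16-fold without bent cotyledon replicate 3. AT2G03850 had 0.126, 0 and 0 CPM at bent cotyledon, against 0.401, 0.801 and 0.328 CPM at late torpedo, and its 1 count against 28 gives a ratio of 0.0663 with a counting interval of 0.00162 to 0.401. That ratio was 0.113 without bent cotyledon replicate 3, and at least 3.67-fold lower relative to 3 counts without bent cotyledon replicate 1, which held the 1 count. The call of COR15A was lost without any single library of the step, and that of AT2G03850 without late torpedo replicate 1 or 2 or bent cotyledon replicate 2 or 3. The count of lower members was 7 of 40 tested without late torpedo replicate 1 or 3 or bent cotyledon replicate 3, beside 15.95%, 17.3% and 17.9% of all genes. It was 6 of 40 without bent cotyledon replicate 2, beside 15.2% of all genes.

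Mature green embryos, which fill the seed and have not yet dried, carried the largest LEA levels of the series. Against bent cotyledon 24 of 37 tested members were higher and 7 were lower, beside 27.2% higher and 28.2% lower among all tested genes (55.4% in either direction). Of the 24, EM1, AT2G42560 and AT2G23110 entered the test through their mature green libraries, which fixed their direction. All 3 LEA_1 genes, both tested PvLEA18 genes and the tested LEA_5 gene rose, as did 11 of 15 tested LEA_4 genes. The dehydrins split, with 5 of 9 tested genes higher and 3 lower, and both tested LEA_3 genes were lower. The median log2 fold change of tested members was 2.83, beside 0.01 over all tested genes. Over the alternatives it ran between 1.597, by limma on log2(TPM + 1), where the median of all genes was −0.44, and 3.89, over 40 tested members without mature green replicate 2. It was 2.27 without mature green replicate 3. By limma on log2(TPM + 1) 21 members were higher and 8 lower, beside 12.9% higher and 50.6% lower among all genes. Relative to preglobular embryos 25 members were higher and 6 were lower, beside 38.5% higher and 37.4% lower among all tested genes (75.9% in either direction).

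The most abundant LEA transcript of mature green embryos was AT3G02480, a LEA_4 gene, with 2872, 3178 and 4686 TPM at mature green, against 31.4, 34.4 and 18.9 TPM at bent cotyledon. In CPM its log2 fold change was 7.79 (SE 0.57, adjusted p = 3.3e-10 by edgeR). The dehydrin AT2G21490 had 1169, 1380 and 1847 TPM at mature green, against 19.7, 16.8 and 27.3 TPM at bent cotyledon (in CPM, log2 fold change 6.91, SE 0.33). AT3G15670 (LEA_4) had 512, 412 and 2794 TPM at mature green, against 5.28, 5.64 and 4.31 TPM at bent cotyledon (in CPM, log2 fold change 8.75, SE 0.68, and 7.23 without mature green replicate 3). For these genes every mature green library lay far above every bent-cotyledon library.

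AT4G21020 (LEA_4) had 521, 492 and 1092 TPM at mature green, against 5.54, 5.46 and 5.24 TPM at bent cotyledon. LEA4-1 had 359.5, 373 and 879 TPM at mature green, against 83.9, 81.95 and 78.02 TPM at bent cotyledon. AT3G17520 (LEA_4) had 241, 265 and 733 TPM at mature green, against 6.97, 9.55 and 4.402 TPM at bent cotyledon. In all 3 of these genes mature green replicate 3 was the highest. AT5G44310 had 248, 232 and 478 TPM at mature green, against 38.97, 38.2 and 43.1 TPM at bent cotyledon. AT2G23120 had 198, 268 and 266 TPM at mature green, against 90.5, 80.5 and 68.2 TPM at bent cotyledon. The smallest fold change of the 10 most abundant members was that of AT2G23120 (log2 fold change 2.38, SE 0.25), already one of the leading members at bent cotyledon.

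EM1 (AT3G51810), of the LEA_5 family first described as Em in wheat embryos, had 190.2, 110.4 and 959 TPM at mature green and was listed at 0 in all bent-cotyledon libraries. Its 26189 counts at mature green against 0 at bent cotyledon make it at least 6782-fold higher relative to 3 counts over the group. That limit was 2304-fold without mature green replicate 3 and 3986-fold without bent cotyledon replicate 3. RAB18 (AT5G66400), an abscisic acid-responsive dehydrin, had 55.6, 97.99 and 426 TPM at mature green, against 0.501, 0.699 and 1.22 TPM at bent cotyledon (in CPM, log2 fold change 8.70, SE 0.82, adjusted p = 1.5e-08 by edgeR, and 7.29 without mature green replicate 3). The mean at mature green was 3578 ± 971 TPM for AT3G02480, 1465 ± 347 TPM for AT2G21490, 1239 ± 1348 TPM for AT3G15670, 702 ± 338 TPM for AT4G21020 and 537 ± 296 TPM for LEA4-1. It was 419.7 ± 468 TPM for EM1, 413 ± 277 TPM for AT3G17520, 319 ± 138 TPM for AT5G44310, 244 ± 39.6 TPM for AT2G23120 and 193 ± 202 TPM for RAB18 (SD, n = 3). From the second gene of this order down, neighbours lie closer to each other than the larger of their SDs.

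**Figure D3:**
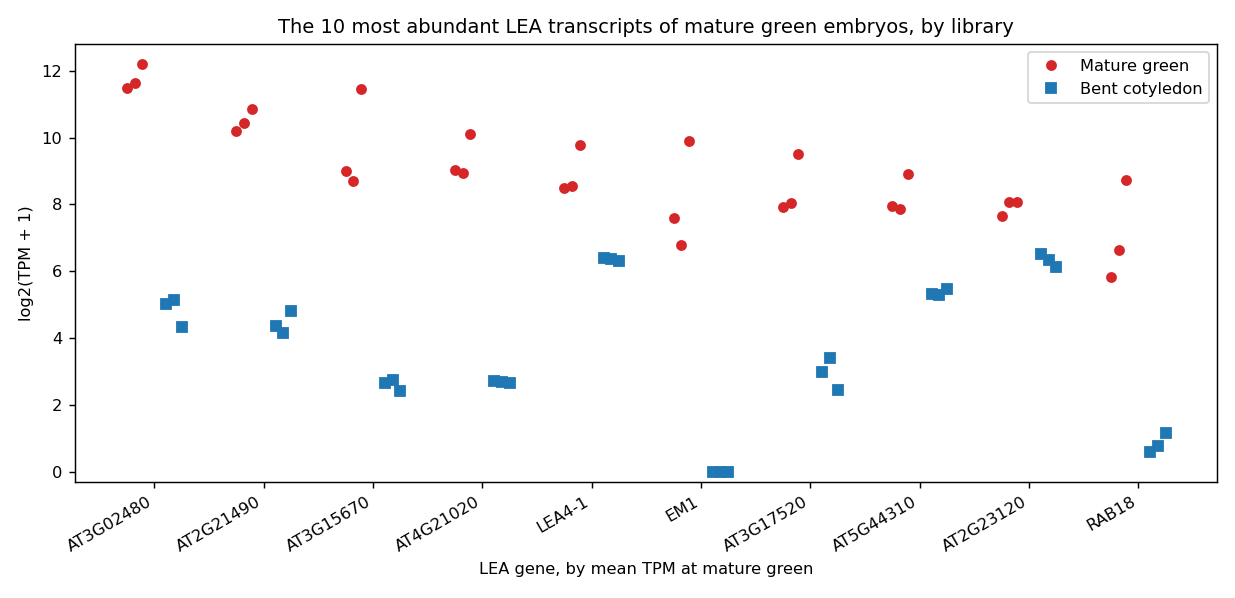
Levels of the 10 most abundant LEA transcripts of mature green embryos as log2(TPM + 1), in the 3 mature green libraries (circles, left) and the 3 bent-cotyledon libraries (squares, right) of each gene. Replicate 3 is far above the other circles for AT3G15670, EM1 and RAB18.

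The neighbouring dehydrin genes XERO2 (AT3G50970) and XERO1 (AT3G50980) both rose. XERO2 averaged 76.5 ± 64.7 CPM at mature green and 0.816 ± 0.713 CPM at bent cotyledon, and XERO1 averaged 93.7 ± 79.1 CPM at mature green and 1.61 ± 0.39 CPM at bent cotyledon. AT2G42560 (LEA_4) had 4.66, 4.19 and 28.2 CPM at mature green, against 0, 0.215 and 0 CPM at bent cotyledon. Its 452 counts against 2 give a ratio of 176 with a counting interval of 48.3 to 1454. That ratio was 64.9 without mature green replicate 3 and 103 without bent cotyledon replicate 3, and at least 80.02-fold higher relative to 3 counts without bent cotyledon replicate 2, which held both counts. HIRD11 had 54.8, 64.5 and 36.2 CPM at mature green, against 23.5, 22.7 and 50.2 CPM at bent cotyledon, so its groups overlap. On the log2(TPM + 1) scale its difference was −0.01, and its call was lost without mature green replicate 1 or 2 (adjusted p = 0.092 and 0.16).

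The members that fell at mature green were AT2G46140, COR15B, COR47, DI21, ERD10, ERD14 and SAG21. SAG21 had 1.81, 1.68 and 0.583 CPM at mature green, against 32.2, 35.8 and 24.3 CPM at bent cotyledon (log2 fold change −4.48, SE 0.52, adjusted p = 2.7e-07 by edgeR). ERD10 had 1.34, 1.599 and 1.17 CPM at mature green, against 24.3, 24.2 and 14.1 CPM at bent cotyledon (log2 fold change −3.91, SE 0.60). COR15B had 0, 0 and 0.167 CPM at mature green, against 1.25, 1.399 and 1.57 CPM at bent cotyledon, and its 2 counts against 42 give a ratio of 0.03699 with a counting interval of 0.00434 to 0.142. That ratio was 0.0557 without mature green replicate 1 and 0.0567 without replicate 2, and at least 12.3-fold lower relative to 3 counts without replicate 3, which held both counts. In these genes no mature green library reached the lowest bent-cotyledon library. DI21 averaged 19.7 ± 5.48 CPM at mature green and 56.2 ± 3.33 CPM at bent cotyledon, and it had 302 ± 13.4 CPM at preglobular. ERD14 averaged 5.83 ± 2.46 CPM at mature green and 11.4 ± 4.404 CPM at bent cotyledon, with overlapping libraries and no call without mature green replicate 3 (adjusted p = 0.12). AT2G44060, the tested member that peaked at bent cotyledon, averaged 51.9 ± 8.63 CPM at mature green and 63.2 ± 5.03 CPM at bent cotyledon, which did not pass the test (adjusted p = 0.075 by edgeR).

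A list of 24 regulators of seed maturation, abscisic acid and cold response, of which 23 were tested, stood beside these members. At mature green 10 of the 23 were higher than at bent cotyledon and 10 were lower, beside 27.2% higher and 28.2% lower among all tested genes. Among the bZIP factors that rose, ABI5 averaged 41.7 ± 21.9 CPM at mature green and 6.93 ± 2.23 CPM at bent cotyledon, and EEL averaged 592 ± 46.4 CPM at mature green and 171 ± 6.48 CPM at bent cotyledon. The means of the other listed bZIP factors went both ways. ABF1, ABF2, ABF3 and BZIP25 averaged 6.195, 2.75, 0.54 and 15.8 CPM at mature green, below their 11.1, 8.77, 3.28 and 24.7 CPM at bent cotyledon. Those of BZIP67, BZIP53, BZIP10 and ABF4 were higher at mature green. DOG1, which sets seed dormancy, had 351, 353 and 626 CPM at mature green, against 6.52, 8.396 and 5.45 CPM at bent cotyledon. ABI3, a B3 factor of seed maturation, averaged 297 ± 6.46 CPM at mature green and 234 ± 15.1 CPM at bent cotyledon and did not pass the test (adjusted p = 0.16 by edgeR). Of the cold regulators, CBF2 averaged 1.72 ± 0.8597 CPM at mature green and 11.9 ± 4.92 CPM at bent cotyledon and fell. CBF1 averaged 4.47 ± 3.42 and 9.76 ± 3.74 CPM at these stages, and CBF3 0.215 ± 0.2 and 2.97 ± 1.61 CPM. The mean of DREB2A went the other way, at 18.8 ± 11.3 CPM at mature green and 7.58 ± 2.03 CPM at bent cotyledon. LEC1, of embryo identity, fell to 0.129 ± 0.157 CPM at mature green, against 32.96 ± 0.088 CPM at bent cotyledon.

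The upstream windows of the LEA genes were read for short elements, in the 250 bases before each annotated gene start in the RefSeq annotation of TAIR10.1, where all 51 members were found by locus. ACGTG, the core of the abscisic acid response element, was searched on both strands. It was in 36 of 51 member windows (70.6%), beside 22.9% of 27443 windows of protein-coding nuclear genes. Of the 24 members higher at mature green 22 had a match (91.7%), of the 7 lower members 3 did (42.9%), and of the other 20 members 11 did (55.0%). Those 20 are the 14 members that were not tested and 6 that did not pass the test. AT2G23120 and XERO2 were the risen members with no match, and XERO2 holds 3 matches to CCGAC, the core of the element bound by CBF factors. The G-box CACGTG reads the same on both strands and holds ACGTG on each. It was in 22 of 51 windows (43.1%, beside 6.49%), those of 15 of the 24 risen members, 0 of the 7 fallen ones and 7 of the other 20. CCGAC, on either strand, was in 18 of 51 windows (35.3%, beside 11.97%), those of 12 of the 24 risen members, 1 of the 7 fallen ones and 5 of the other 20. CATGCA, the core of the RY element, was in 9 of 51 (17.6%, beside 8.43%), those of 5 risen, 1 fallen and 3 other members. A match is a run of letters and does not show binding.

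The windows of the 5 LEA genes with the highest mean TPM at mature green are shown, chosen by that rank. All 5 windows hold ACGTG. They are written 5′ to 3′ on the strand of the gene and end at the base before the gene start, with ACGTG on either strand in capitals.
AT3G02480 (chr3:511970-512219, plus strand): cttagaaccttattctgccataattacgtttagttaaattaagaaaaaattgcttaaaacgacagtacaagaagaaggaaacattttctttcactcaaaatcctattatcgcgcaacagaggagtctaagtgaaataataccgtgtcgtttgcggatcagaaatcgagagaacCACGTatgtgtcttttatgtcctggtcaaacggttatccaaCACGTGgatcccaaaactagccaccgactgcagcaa
AT2G21490 (chr2:9207126-9207375, minus strand): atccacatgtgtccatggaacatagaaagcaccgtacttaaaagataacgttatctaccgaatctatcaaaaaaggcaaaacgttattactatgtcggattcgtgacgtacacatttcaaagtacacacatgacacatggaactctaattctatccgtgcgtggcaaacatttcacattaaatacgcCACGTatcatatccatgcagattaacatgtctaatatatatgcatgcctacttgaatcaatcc
AT3G15670 (chr3:5310989-5311238, minus strand): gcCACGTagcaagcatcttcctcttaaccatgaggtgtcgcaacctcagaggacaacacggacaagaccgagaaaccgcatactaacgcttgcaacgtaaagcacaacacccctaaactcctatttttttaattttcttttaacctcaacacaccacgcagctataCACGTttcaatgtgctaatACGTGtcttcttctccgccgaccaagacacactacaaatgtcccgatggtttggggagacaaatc
AT4G21020 (chr4:11227937-11228186, plus strand): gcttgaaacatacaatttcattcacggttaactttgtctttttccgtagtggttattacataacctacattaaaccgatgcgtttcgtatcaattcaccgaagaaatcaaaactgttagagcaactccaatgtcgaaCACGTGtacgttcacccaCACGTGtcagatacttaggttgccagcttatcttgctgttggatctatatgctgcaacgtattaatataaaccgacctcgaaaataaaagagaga
LEA4-1 (chr1:11774234-11774483, plus strand): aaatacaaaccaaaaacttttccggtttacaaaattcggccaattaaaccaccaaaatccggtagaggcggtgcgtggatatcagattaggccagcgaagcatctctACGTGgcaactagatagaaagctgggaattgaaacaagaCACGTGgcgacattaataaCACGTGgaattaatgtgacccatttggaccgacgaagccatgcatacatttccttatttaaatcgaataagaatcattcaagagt
AT4G21020 and LEA4-1 each hold 2 copies of CACGTG and AT3G02480 holds 1. In AT2G21490 and AT3G15670 the ACGTG matches stand without it.

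The mature green replicates of most LEA genes were far apart, and replicate 3 was the high one. Among the 25 members with a mean of at least 10 CPM at mature green, the median coefficient of variation was 61.4%, beside 16.2% over 11056 tested genes with such a mean. At the other stages the members' median was 8.02% to 22.4%, over the 6 to 15 members with such a mean there. Over all genes with such a mean it was 6.245% to 17.3%, and the members' median was the higher at each stage. The ratio of replicate 3 to the mean of replicates 1 and 2 had a median of 2.64 over these members and 0.999 over all such genes. It exceeded 2 in 17 members (68.0%, beside 3.86% of all) and 5 in 7 members (28.0%, beside 0.380%). It lay above the 90th percentile of all such genes, 1.53, in 21 of 25. AT2G44060, DI21 and HIRD11 were the 3 of these 25 members with a ratio under 1. The mean that chose these members, and the other genes beside them, includes replicate 3. AT3G53040, AT2G23110 and AT2G42560 reach 10 CPM only through replicate 3, and all of them had a ratio above 5. In the mean of replicates 1 and 2 they had 5.91, 2.72 and 4.42 CPM.

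Among these 25 members the largest spread was in AT3G53040 (LEA_4), with 7.02, 4.798 and 79.5 CPM in replicates 1, 2 and 3. Next was AT2G23110 (PvLEA18), with 2.92, 2.51 and 33.1 CPM. EM1 had 289.6, 183 and 1677 CPM. AT2G23120, the neighbour of AT2G23110, differed little, with 256, 376 and 394 CPM. Among members with too few counts for the test, EM6 (AT2G40170), the other Em gene, had 0.316, 0.229 and 18.8 CPM. ECP31 (AT3G22500, SMP) had 1.105, 0.609 and 26.3 CPM and AT4G36600 (LEA_4) had 1.34, 0.533 and 24.8 CPM. With no filter on low counts 31 of 50 tested members were higher at mature green and 7 lower, beside 18.6% higher and 17.7% lower among 31005 genes (36.3% in either direction). The added ones were EM6, ECP31, AT4G36600, AT3G22490, AT4G39130, AT5G53270 and M10. All 7 were highest in replicate 3.

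Replicate 3 also set the size of many called changes. Without it, the fold of 15 of the 24 members called higher moved by more than 1.5 times, against 0 of 24 without replicate 1 and 0 of 24 without replicate 2. Of all 5722 genes called higher 6.48% moved as far without replicate 3, 0.489% without replicate 1 and 0.402% without replicate 2. AT3G15670 was 431-fold higher with all libraries and 150.1-fold without replicate 3. RAB18 was 416-fold higher with all libraries and 156-fold without replicate 3. AT3G53040 was 24.7-fold higher with all libraries and 4.85-fold without replicate 3. Of the 24 calls 23 were kept without it, beside 87.8% of those of all genes, LEA14 (AT1G01470, LEA_2) being lost at an adjusted p of 0.42 in edgeR.

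The listed regulators were mixed in this library. Of the 14 with a mean of at least 10 CPM at mature green, 2 had a ratio of replicate 3 to the mean of replicates 1 and 2 above 2, 2 had one under 0.5, and 10 lay between. The high ones were ABI5, with 33.6, 24.9 and 66.5 CPM in replicates 1, 2 and 3, and DREB2A, with 14.4, 10.4 and 31.7 CPM. The low ones were NF-YB6, with 209.9, 161 and 60.8 CPM, and the kinase gene OST1, with 50.9, 18.7 and 3.58 CPM, which was low in replicate 2 as well. ABI3, EEL and FUS3 were among those between, ABI3 having 292, 295 and 304 CPM. Among the regulators of lower level HSFA9, a heat shock factor of maturing seeds, had 0, 0.152 and 5.58 CPM. Of these lower regulators HSFA9, CBF1 and CBF2 had a ratio above 2, and ABF3 had one under 0.5. ABF1, ABF2, SNRK2.3, LEC1, LEC2 and CBF3 lay between.

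Markers of other tissues were also read in these libraries. The summed seed coat markers were 53.0, 48.4 and 25.8 CPM in replicates 1, 2 and 3. MUM4 had 40.4, 38.6 and 19 CPM, TT10 had 7.81, 5.18 and 4.83 CPM and TTG2 had 4.18, 3.503 and 1.42 CPM. TT2 was at 0, and the other 4 were under 1 CPM in each library. The summed endosperm markers were 1.105, 0.990 and 1.25 CPM. PHE1 and MINI3 were at 0, and the other 7 were under 1 CPM in each library, among them IKU2 at 0.0789, 0.152 and 0.417 CPM. The part of these transcripts in the spread of the LEA genes was not tested.

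**Figure D4:**
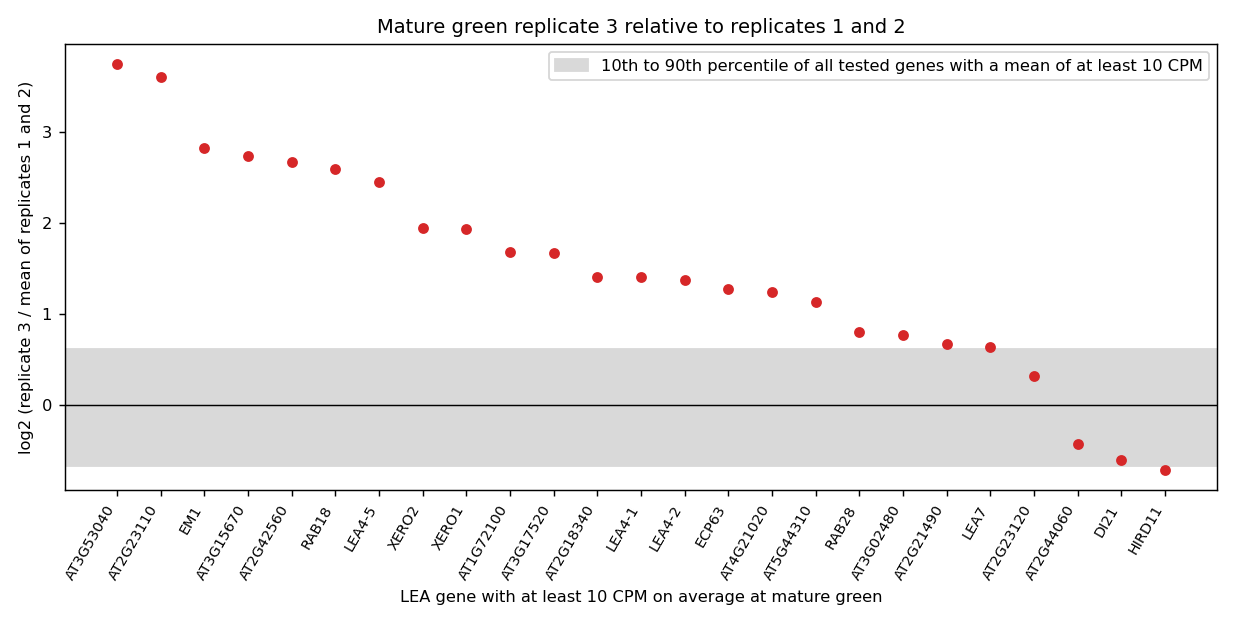
Ratio of mature green replicate 3 to the mean of replicates 1 and 2, as log2, for the 25 LEA genes with at least 10 CPM on average at this stage; the grey band is the 10th to 90th percentile of all tested genes with such a mean. Of the points 21 lie above the band, and AT3G53040 has the highest ratio, at 13.4. AT3G53040, AT2G23110 and AT2G42560 reach 10 CPM on average only through replicate 3.

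Lower inputs of bent-cotyledon RNA gave no called difference in the 27 LEA genes tested with all libraries in edgeR, and the other 24 did not pass the filter on low counts. With Smart-seq2 at 0.1, 0.5 and 1 ng against 5 ng, 0 of 27 tested members were called at any input (edgeR, adjusted p under 0.05), beside 0.205%, 0% and 0% of all tested genes. Members with an unadjusted p under 0.05 numbered 3 at 0.1 ng, 0 at 0.5 ng and 0 at 1 ng. Those 3 were COR15B, XERO2 and AT3G53040, which had 0 counts at 0.1 ng, against 42, 21 and 36 counts at 5 ng. At 0.1 ng DESeq2 called 1 of 36 lower, beside 1.82% of all genes. At that input edgeR also called 1 of 29 lower without 0.1 ng replicate 2 and 1 of 29 without 0.1 ng replicate 3, beside 0.547% and 2.79% of all genes. LEA4-1 averaged 76.5, 67.7, 75.7 and 81.3 TPM with Smart-seq2 at 0.1, 0.5, 1 and 5 ng.

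The other kits, with 1 library at each input and so no test, were set beside Smart-seq2 at the 4 shared inputs. With Ovation 15 of 44 listed members were lower by 2 or more in log2(TPM + 1) at all 4 inputs, beside 31.1% of all genes, and 0 were higher, beside 0.0398%. With SMARTer 0 members were lower, beside 0.568%, and 0 higher, beside 0.145%. Members near 0 TPM cannot be lower by that much. Where either method gave at least 5 TPM at each input, 15 of 18 members were lower with Ovation, beside 8181 of 10026 genes. AT3G02480 had 0.918, 0.774, 0.807 and 0.678 TPM with Ovation at 0.1, 0.5, 1 and 5 ng, against means of 19.8, 30.6, 27.8 and 28.2 TPM with Smart-seq2. AT5G44310 had 0, 7.91, 10.2 and 18.4 TPM with SMARTer at these inputs, against means of 38.9, 36.6, 38.2 and 40.1 TPM with Smart-seq2. The summed LEA share was 0.0033% to 0.0059% of TPM with Ovation and 0.0149% to 0.0705% with SMARTer, against 0.0490% to 0.0585% with Smart-seq2. As a part of estimated counts it was 0.00841% to 0.0147% with Ovation and 0.00978% to 0.0556% with SMARTer, against 0.0454% to 0.0603% with Smart-seq2, so the gap between Ovation and Smart-seq2 was smaller on that scale.

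**Figure D5:**
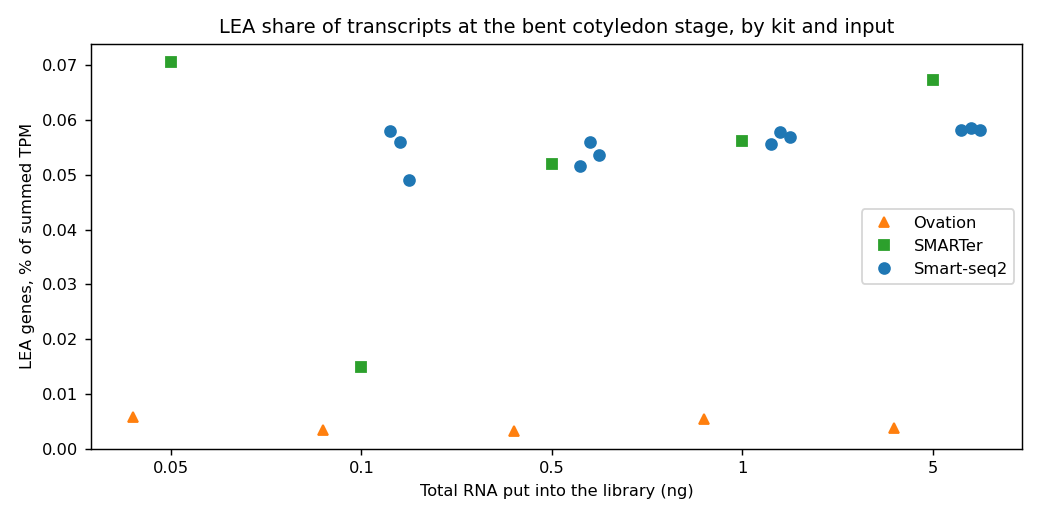
Summed TPM of the 51 LEA genes as a percent of all TPM in each bent-cotyledon library, by amount of total RNA (ng) and preparation method; each point is 1 library. Ovation lies at 0.0033% to 0.0059%, and SMARTer at 0.1 ng is low, at 0.0149%.

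Most members are distinct enough in sequence for their reads to be told apart. Of the 51, 37 share no stretch of 31 bases with a transcript of another locus, and 6 share over 10% of such stretches. COR15B shares 28.2%, nearly all with AT2G42520, SAG21 shares 15.5%, AT2G23120 shares 14.9% and UNE15 shares 11.8%, so their levels are less certain. The neighbours AT5G53260 and AT5G53270 share 19.96% and 11.9% with each other. COR47 and ERD10 share 2 such stretches. Neighbouring members did not always have the same profile, since COR15A peaked at preglobular and COR15B at late torpedo, and AT2G23110 stayed under 1 CPM to bent cotyledon while AT2G23120 was above 4 CPM in every library.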

How the data were processed

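Transcripts were measured in 43 libraries of Arabidopsis Col-0 embryos. Cutadapt 1.9.1, kallisto 0.43.1 and the build TAIR10 are named, with no settings or strand, per the submitters' processing notes. The deposited tables give, for 54845 transcripts, estimated counts, which are not scaled to depth, and TPM, which the authors' tool scales per length and library. Estimated counts were summed per locus and rounded, leaving out 96 spike-in RNAs and 1064 other non-coding RNAs. With edgeR 4.0.16 (filterByExpr filter, TMM scaling and the quasi-likelihood test), the 24 stage libraries were fitted together (21014 genes tested) and the 12 Smart-seq2 input libraries together (17090 genes). A call is an adjusted p under 0.05 (Benjamini-Hochberg, over all genes). TMM factors ran between 0.5527 and 0.6281 in mature green libraries, and between 0.8383 and 1.302 in the others.

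The members and lists were chosen with earlier results of these data known. Values for every library are given for the 10 members of highest mean TPM at mature green, the 3 largest called rises and falls of each neighbouring step and the 3 largest coefficients of variation at mature green; any other member may be named. Folds against 0 counts use a floor of 3 counts over the group, and ratios with 1 to 3 counts have an exact 95% interval. Both cover counting error only, since amplified reads are not independent molecules. No label says that replicates came from separate plants, so p-values measure the spread between these samples.

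The labels tie each replicate number of the input libraries to 1 RNA, and same-numbered residuals had a mean correlation of 0.163 (12 of 18 pairs over 0.1). Alternatives were RLE, DESeq2 1.42.0, other filters, limma 3.58.1 on log2(TPM + 1) and log2(TPM + 0.1), organelle genes out, a fit of only the groups compared, the replicate block, the 1 ng bent-cotyledon libraries, and each library left out. Of these fits only the main edgeR fit of the stages was tested on simulated data, for mature green against bent cotyledon. That simulation held no library that stood apart. It drew all stages from the late torpedo means and changed far fewer genes than were called at the real step. The reference build TAIR10.1 holds a transcript of equal length for 51 of 51 members and 32068 of 32221 nuclear loci, and printed coordinates are those of TAIR10.1. R was 4.3.3, Python 3.11.15, numpy 2.4.6, pandas 2.3.3, scipy 1.17.1 and matplotlib 3.10.9.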

Additional observations from a re-analysis of the deposited data

How the results depend on the processing

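The counts of LEA genes called at mature green kept their direction and stayed within 1.5 times under the alternatives run. Those of the small early steps moved. So did the count of members lower at bent cotyledon than at late torpedo, 11 with all libraries and 6 to 9 with 1 left out. Shares of all genes called in the same direction stand in brackets. Globular against preglobular had 6 members higher by limma on log2(TPM + 1) (40.4%), 7 on log2(TPM + 0.1) (39.8%) and 5 by DESeq2 (11.6%). Early heart against globular had 8 higher by limma on log2(TPM + 0.1) (19.9%) and 3 in a fit of only those groups (11.7%). It had 0 lower with no low count filter (4.96%), with a filter of 5 CPM in 3 libraries (11.7%) and by limma on log2(TPM + 0.1) (2.87%), and 2 lower by DESeq2 (12.5%) and in the fit of only those groups (12.6%). In such a fit late heart against early heart had 1 higher (6.12%) and 1 lower (4.202%), and late torpedo against early torpedo had 0 lower (0%). Early torpedo against late heart had 3 higher on log2(TPM + 0.1) (4.302%), and 2 lower on that scale (35.5%) and 2 on log2(TPM + 1) (39.0%). Late torpedo against early torpedo had 1 higher without organelle genes (0.708%), 2 by limma on log2(TPM + 1) (1.64%) and 2 by DESeq2 (2.202%). At 0.1 ng DESeq2 called 1 lower (1.82%). With a difference of 1 or more SMARTer had 1 member lower, AT5G44310. The cause was not tested.

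As a part of nuclear TPM the summed LEA share was 0.05308% at preglobular, 0.06838% at early heart, 0.07094% at late heart, 0.07445% at early torpedo, 0.07134% at late torpedo and 0.07917% at bent cotyledon. As a part of estimated counts it was 0.04834% at globular, 0.05231% at early heart, 0.05516% at late heart and 0.05741% at bent cotyledon. With 1 library left out, early heart against globular had 3 to 5 higher and 0 to 2 lower, late heart against early heart 0 to 3 higher and 0 lower, early torpedo against late heart 4 to 7 higher and 0 lower, late torpedo against early torpedo 0 to 4 higher and 0 to 2 lower, bent cotyledon against late torpedo 13 to 15 higher and 6 to 9 lower, and mature green against bent cotyledon 23 to 26 higher and 6 to 8 lower. At 0.1 ng it had 0 to 1 lower. The share at mature green was 0.7041% to 1.131%.

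Replicate numbers of the stages do not pair the samples (mean correlation −0.0149, 6 of 84 pairs over 0.1). With the replicate block, mature green against bent cotyledon had 23 higher and 7 lower, LEA14 being lost. At the inputs the block changed no member call. On TPM the median of all genes shifted by −0.44 on log2(TPM + 1) between mature green and bent cotyledon and by 0.35 between globular and preglobular. Of 110 calls, 1 turned direction under an alternative, that of HIRD11 at mature green. Members with few counts, such as COR15A after preglobular, and bent-cotyledon levels, from the shallowest stage, are limited by depth.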
